A study of Mus musculus with 281 samples.

Results

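Transcripts of 8 genes of the Myc and Myb families were followed in single cells of mouse bone marrow: Myc, Mycn, Max, Mxd1, Mxd3, Mxi1, Myb and Mybl2. They were chosen by name, though with earlier results of these data known. They are 8 of the 43280 gene symbols measured, of which 17830 were above 0 in at least 1 cell. The series profiled 281 cells of C57BL/6 mice, an inbred strain, by SMART-seq2, which reads whole transcripts of a single cell without counting molecules, to look at heterogeneity among granulocyte-monocyte progenitors (GMPs). Levels are in TPM, transcripts per 1000000, which are corrected for transcript length and add up to the same sum in each cell, so levels can be compared between genes and are relative within a cell.

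The cell type labels gave 6 groups, all from bone marrow of the same strain, and the labels used here name no genetic change or treatment. CMP cells (47) were taken as Lin-, Sca-1-, CD34+ and Ckit+ with CD16/32lo staining. Ly6C-GMP (45) and Ly6C+GMP cells (95 and 10 from the runs A and C named below) had CD16/32hi staining instead and were split by Ly6C. Of the 22 proneu cells, 21 carried the Ly6C+GMP gate and 1 carried no gate, and how the proneu label was given is not stated in the sources used here. The preNeu and tpMo cells were Lin- as well. The preNeu cells (31) were Gr1+, CD11b+, CXCR4+ and ckit+, without CD115 or SiglecF, and the tpMo cells (31) were CD115+, Ly6C+ and CXCR4+ without ckit. The labels used here tie no cell to an animal, so each label is 1 sample: errors below are SDs over cells, no test was possible, and differences are descriptions of these cells. Sample titles fell into 4 number stretches, called runs A, B, C and H here, whose meaning is not stated. CMP and Ly6C-GMP cells came from runs B and H, Ly6C+GMP cells from A (95 cells) and C (10 cells), and the later labels from C except for 1 proneu cell in B. A difference within a run is therefore given wherever 1 run held both labels.

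Myc proteins bind DNA at E-boxes as pairs with Max and activate genes for ribosome production, metabolism and cell division. Mxd1, Mxd3 and Mxi1 (also known as Mxd2) compete for Max, bind the same sites and recruit Sin3 and histone deacetylases, so they oppose Myc, and Mxd1 is known as a gene of terminal myeloid differentiation. Myb keeps blood progenitors immature and proliferating and activates early myeloid genes, whereas its relative Mybl2 (B-Myb) joins the MuvB complex in cycling cells to form MMB, which activates genes of mitosis.

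Cells had between 1487 and 5719 genes at 1 TPM or more, with label medians of 2373 in preNeu, 3082 in tpMo, 3489 in CMP, 4204 in proneu, 4514 in Ly6C-GMP and 4829 in Ly6C+GMP cells. The top 20 genes by level made up 47.1% of the TPM in the median preNeu cell and between 14.2% and 22.4% in the median cell of the other labels. Markers followed the labels in part. Cd34 and Kit of the CMP and stem list, Fcgr3 of the GMP list and Csf1r and Ly6c2 of the monocyte list encode proteins used in sorting. The sums that hold them can be set in part by the gates. The summed level of 8 neutrophil genes had a median of 313284 TPM in preNeu cells and at most 2785 TPM elsewhere. These genes are called the secondary granule list here, although S100a8 and S100a9 among them encode cytosolic proteins. The sum of 7 primary granule and GMP genes peaked in proneu cells (median 113032 TPM). That of 8 monocyte genes peaked in tpMo cells (14224 TPM), with 9902 in Ly6C+GMP and 7804 in proneu cells. The sum of 7 CMP and stem genes peaked in CMP cells (1800 TPM). Its median of 787 TPM in tpMo cells was above 527 in Ly6C+GMP and 317 in proneu cells. That tpMo sum rests on few genes, as 3 of the 7 had a mean of at least 1 TPM and 3 were listed at 0 in every tpMo cell. CMP cells also held erythroid and megakaryocyte transcripts, with a median sum of 531 TPM over 10 markers against 1.09 TPM in Ly6C-GMP cells; Klf1 was detected in 20 and Gata1 in 12 of 47 CMP cells, and Hba-a1 and Hbb-bs were listed at 0 in all of them. Fewer detected genes and a large share of the TPM in few genes move with the preNeu label in every result below, and their part in the results was not tested beyond the rescaled values given.

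Promoter sequences (RefSeq, GRCm38.p6) were found for 7 of the 8 members. They are shown for Mybl2 and Myb, which differed in the share of cells that held them, and for Mxd3 and Mxd1, the members higher in preNeu than in proneu cells. Each is the stretch of up to 250 bases before the RefSeq transcript start, ended before the GENCODE M21 start where that lies further upstream, 5′ to 3′ on the gene's strand. Capitals mark GGCGGGA, a form of the site of E2F factors that drive S phase genes, chosen after the sequences were seen; in Mxd3 they run on by 1 base to include the overlapping form GCGGGAA. The regions are chr2:163054385-163054634 (+) for Mybl2, chr10:21160985-21161234 (-) for Myb, chr13:55329824-55329981 (-) for Mxd3 and chr6:86669162-86669409 (-) for Mxd1.
Mybl2: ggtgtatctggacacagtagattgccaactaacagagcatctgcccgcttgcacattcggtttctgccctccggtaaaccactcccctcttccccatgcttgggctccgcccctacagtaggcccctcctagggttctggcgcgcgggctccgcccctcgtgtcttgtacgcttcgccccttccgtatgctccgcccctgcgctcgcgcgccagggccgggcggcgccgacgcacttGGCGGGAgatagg
Myb: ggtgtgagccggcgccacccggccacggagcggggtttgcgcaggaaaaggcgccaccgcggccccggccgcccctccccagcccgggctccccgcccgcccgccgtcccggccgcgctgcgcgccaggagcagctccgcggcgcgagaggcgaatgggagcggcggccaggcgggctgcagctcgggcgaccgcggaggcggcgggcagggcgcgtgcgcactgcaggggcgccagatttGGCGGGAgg
Mxd3: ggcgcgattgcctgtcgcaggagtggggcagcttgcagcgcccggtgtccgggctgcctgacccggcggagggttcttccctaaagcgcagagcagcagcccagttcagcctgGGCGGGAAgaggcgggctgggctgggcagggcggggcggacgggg
Mxd1: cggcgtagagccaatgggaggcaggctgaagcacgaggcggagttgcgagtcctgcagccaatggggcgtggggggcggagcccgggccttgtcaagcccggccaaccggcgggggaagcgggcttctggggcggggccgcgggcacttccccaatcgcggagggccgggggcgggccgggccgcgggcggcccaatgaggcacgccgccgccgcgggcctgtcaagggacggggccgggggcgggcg
The match began 13 bases before the start of Mybl2 and 9 before that of Myb, and in Mxd3 the longer run began 137 bases before it. GGCGGGA was present, on either strand, in 9.75% and GCGGGAA in 3.82% of 32851 RefSeq promoters of 250 bases. Mxd1, with 78.2% G and C, held neither. No E-box CACGTG (6.02% of promoters) and no C/EBP site TTGCNNAA (9.56%) was in any of the 4 stretches, nor was the cell cycle element TTTGAA (16%). The Myb core AACNG, searched in the same way, occurs in 74.2% of promoters; it was in 3 of the 4 stretches and not in that of Myb. These matches are letters in a window, not shown to be bound.

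Myc (chr15:61985391-61990374, + strand, GRCm38, GENCODE M21) encodes the best known growth-promoting factor of its family. It was abundant in all 4 progenitor labels and nearly absent in preNeu cells. CMP cells ran from 0 to 3464 TPM with a median of 645 TPM, Ly6C-GMP cells from 0 to 1505 with a median of 441, and Ly6C+GMP cells from 0 to 1242 with a median of 229 TPM. The proneu cells were split, with 6 of 22 listed at 0 and the other 16 between 27.8 and 1146 TPM (median of all 22, 230 TPM). Myc was listed at 0 in 26 of 31 preNeu cells and reached at most 2.37 TPM in the rest. The tpMo cells had a median of 0, 10 cells between 1 and 10 TPM, and 5 cells at 110, 128, 264, 489 and 525 TPM, which overlap the progenitors.

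For CMP, Ly6C-GMP, Ly6C+GMP and proneu cells the means of Myc were 788 ± 685, 471 ± 345, 315 ± 292 and 304 ± 314 TPM (SD over cells), followed by tpMo with 49.5 ± 134 and preNeu with 0.23 ± 0.57 TPM. The same order held on the log2(TPM + 1) scale used for all differences below. Only the step from proneu to tpMo cells, 4.32 log2 units, was larger than the pooled SD over cells (3.36), and the other neighbours in the order did not differ beyond their spread. The CMP mean TPM was 1.67 times the Ly6C-GMP mean, but the difference of mean log2 values was only -0.29, with 0.05 in run B and -0.93 in run H.

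**Figure D1:**
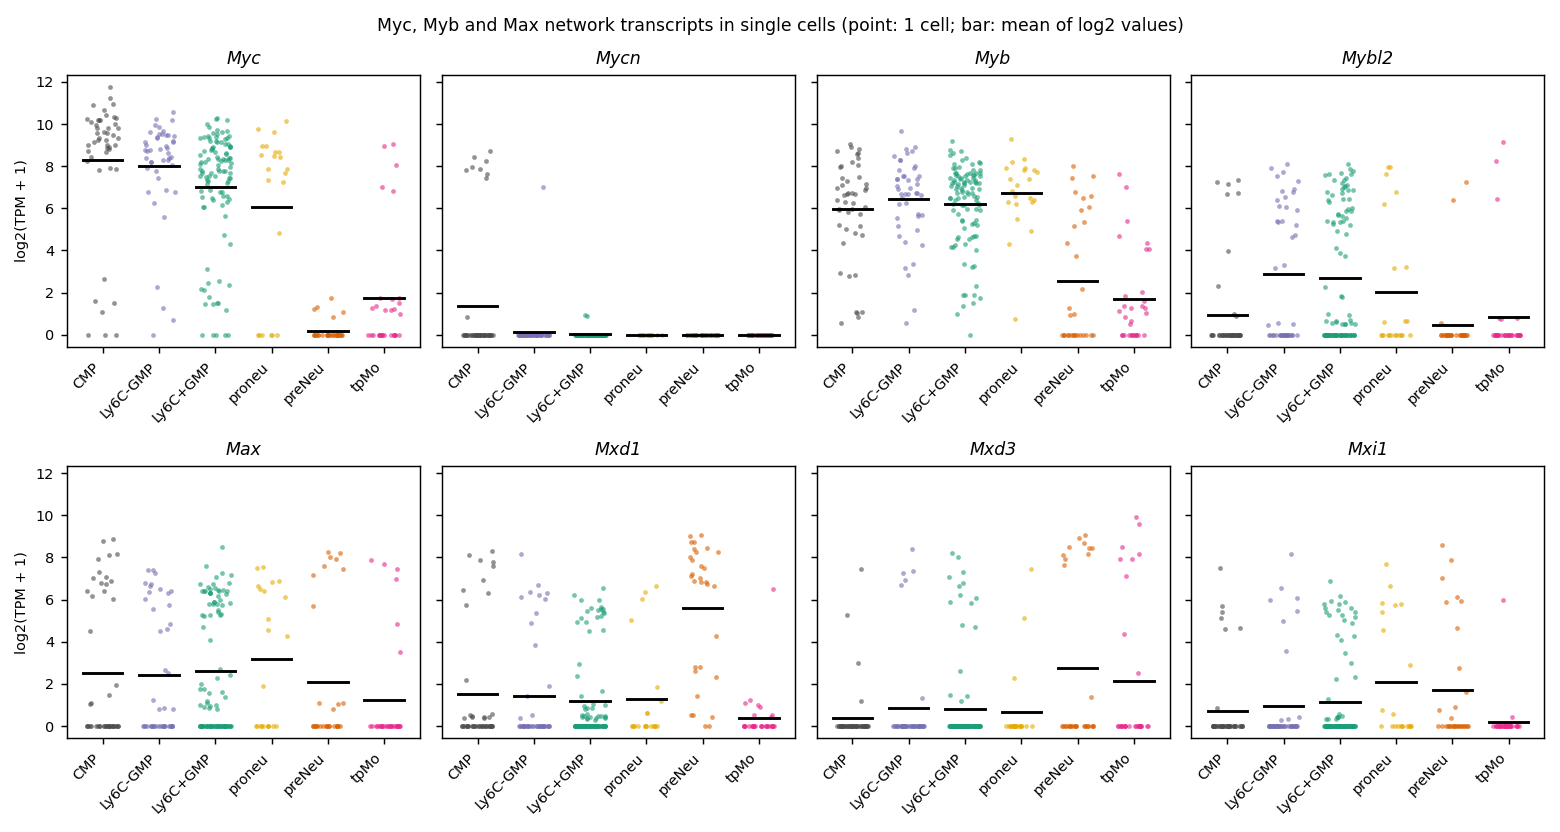
Level of each of the 8 genes in every cell, as log2(TPM + 1), by cell type label; points are single cells and bars are means of the log2 values. Myc and Myb fill the 4 progenitor labels and are under 10 TPM in most preNeu and tpMo cells, Mxd1 fills preNeu cells, and Mycn appears in 8 CMP cells and 1 Ly6C-GMP cell.

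Mycn (chr12:12936093-12941914, - strand) encodes N-Myc, which can stand in for Myc in early blood cells. It was found in few cells and at high levels in those. The 8 CMP cells held 174, 196, 225, 231, 251, 300, 343 and 416 TPM, 6 of them from run B and 2 from run H, and 1 more CMP cell held 0.82 TPM. A single Ly6C-GMP cell held 127 TPM. In the other 4 labels no cell reached 1 TPM; exact upper 95% limits for such a share were 3.45% in Ly6C+GMP, 15.4% in proneu and 11.2% in preNeu and in tpMo cells, for counting error only. The CMP share was 17% (exact Clopper-Pearson 95% interval, 7.65 to 30.8%), and the CMP mean of 45.5 ± 106 TPM rests on those 8 cells. All 9 cells with Mycn also held at least 10 TPM of Myc, as did 40 of 47 CMP cells in general. None of the 9 held Mybl2 at 1 TPM, which 7 of 47 CMP cells did. The shares of CMP cells with Mycn and with Mybl2 multiply to only 1.19 cells with both. Across CMP cells Mycn had r = -0.32 with the number of genes detected (n = 47, a description), and the erythroid transcripts of CMP cells given above are another feature of that label whose part was not tested. Mycl, the third Myc gene, was listed at 0 in all 281 cells.

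Max (chr12:76937269-76962201, - strand) encodes the shared partner of Myc and Mxd proteins. Its transcript was scattered, with mean levels of 59.6 ± 112 TPM in CMP, 53.8 ± 101.4 in preNeu, 46 ± 61.1 in proneu, 32 ± 53.4 in Ly6C+GMP, 30.9 ± 49.9 in Ly6C-GMP and 25.1 ± 64.3 in tpMo cells. Detection ran from 6 of 31 tpMo cells to 12 of 22 proneu cells, and the 11 preNeu cells with Max had a median of 174 TPM against 85.8 TPM in the 12 proneu cells with it. No neighbours in the order of mean log2 values differed beyond their spread, and the direction between preNeu and proneu cells turned with the scale. The difference was -1.12 between the means of log2 values but 0.22 as the log2 ratio of mean TPM.

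Mxd1 (chr6:86647042-86669161, - strand) was the member that stood out in preNeu cells. Their values ran from 0 to 528 TPM with a median of 115 TPM, and 26 of 31 cells (83.9%, exact 95% interval 66.3 to 94.5%) were at 1 TPM or more. Medians were 0 TPM in each of the other 5 labels, although the highest cell held 319 TPM among CMP, 290 among Ly6C-GMP, 100.3 among proneu, 92.6 among Ly6C+GMP and 91.1 among tpMo cells, so the ranges overlap. The means were 164 ± 165 TPM in preNeu cells, 33.6 ± 79.9 in CMP, 18.8 ± 49.6 in Ly6C-GMP, 12.8 ± 29.4 in proneu, 8.41 ± 18.8 in Ly6C+GMP and 3.12 ± 16.3 in tpMo cells, the last falling to 0.19 TPM without its highest cell. The preNeu mean log2 value lay 4.07 above that of CMP cells, the next label, which exceeded the pooled SD of 2.99; the other neighbours did not differ beyond their spread.

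Mxd3 (chr13:55325168-55329823, - strand) encodes a Mxd protein known from cycling cells. It was either high or absent in preNeu and tpMo cells. In preNeu cells 20 of 31 were listed at 0, 1 held 1.61 TPM and 10 held between 201 and 535 TPM; in tpMo cells 22 were at 0, 2 held 4.67 and 19.7 TPM, and 7 held between 137 and 974 TPM. It was detected in 4 of 47 CMP, 6 of 45 Ly6C-GMP, 16 (15.2%) of Ly6C+GMP and 3 of 22 proneu cells, against 11 and 9 of 31 preNeu and tpMo cells. The means were 113 ± 175 TPM in preNeu and 98.3 ± 231 in tpMo cells, and between 4.71 and 19.6 TPM in the other labels, where 1 cell set much of the mean (proneu 9.5 ± 36.9, or 1.78 TPM without its highest cell; CMP 4.71 ± 26, or 1.0 without it; Ly6C-GMP 19.6 ± 62.9, or 12.3 without it). With SDs this wide no neighbours in the order differed beyond their spread.

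Mxi1 (chr19:53310518-53375810, + strand) was low throughout. Its means were 31.4 ± 82.4 TPM in preNeu (19.5 without its highest cell), 24.6 ± 49.2 in proneu (15.9), 13.3 ± 46.6 in Ly6C-GMP (7.0), 8.5 ± 19.9 in Ly6C+GMP and 7.60 ± 28.5 in CMP cells (3.79). Just 1 of 31 tpMo cells, at 61.8 TPM, had it. Detection was highest in proneu cells (8 of 22) and no neighbours differed beyond their spread. All 7 preNeu cells with at least 10 TPM of Mxi1 also held at least 10 TPM of Mxd1, which 21 of 31 preNeu cells did. Mxd4, another gene of the family, had means of 53.5 ± 122 TPM in CMP and between 23.8 and 30.2 TPM in both GMP labels and proneu. It was nearly absent both in tpMo cells (mean 6.55 TPM, from 1 of 31 cells, at 203 TPM) and in preNeu cells (0.57 ± 2.66 TPM, 2 of 31 cells).

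**Figure D2:**
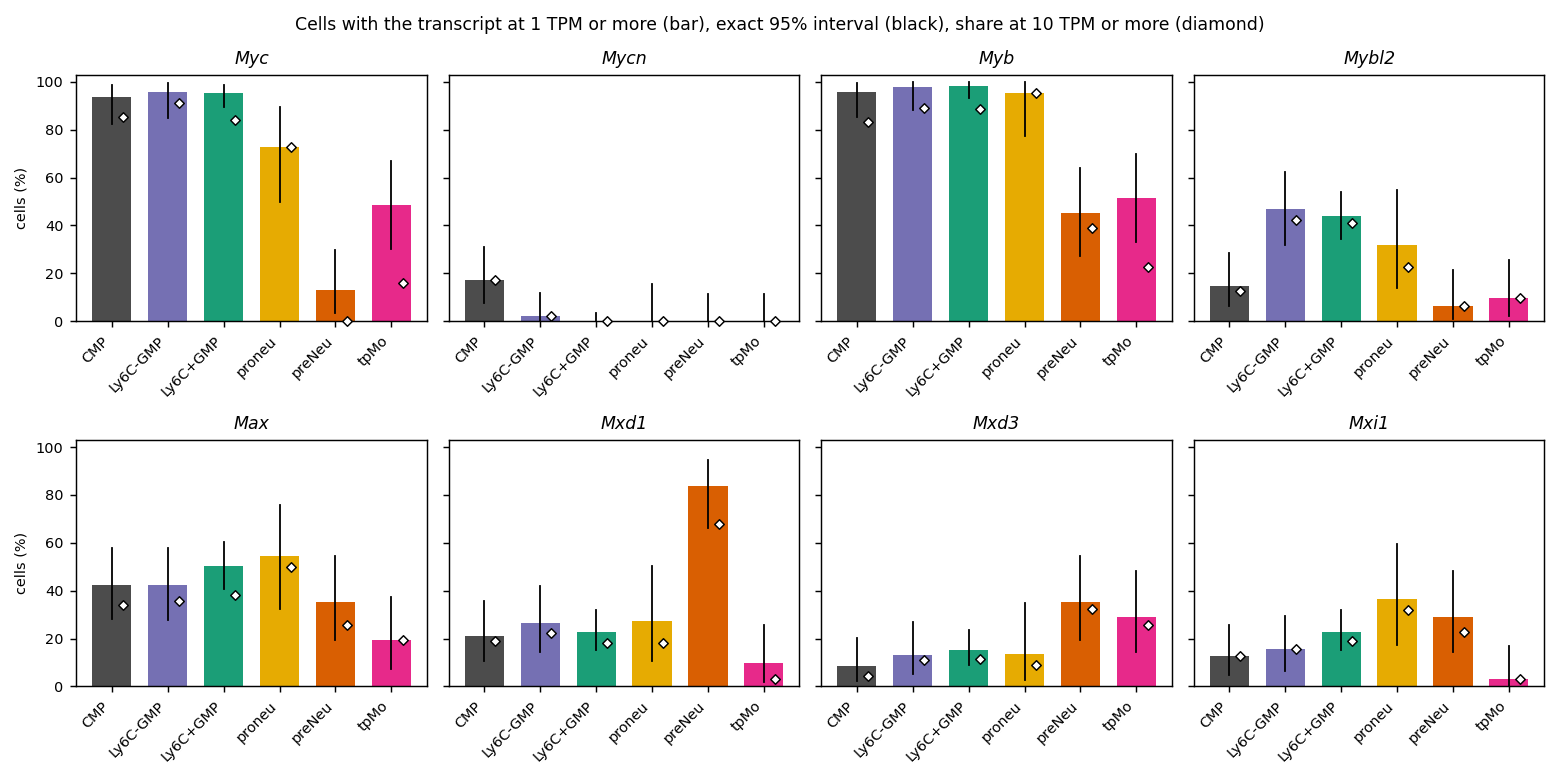
Percent of cells with each gene at 1 TPM or more (bars, with exact 95% intervals for counting error) and at 10 TPM or more (diamonds), by label. Mxd1 is at 83.9% in preNeu cells and at or under 27.3% in every other label, and Mycn is at 17% in CMP cells.

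Summed over the family, Myc transcripts (Myc, Mycn and Mycl) exceeded Mxd transcripts (Mxd1, Mxi1, Mxd3 and Mxd4) in most progenitor cells and in no preNeu cell. The Mxd sum was the larger in 5 of 47 CMP, 4 of 45 Ly6C-GMP, 20 (19%) of the Ly6C+GMP and 4 of 22 proneu cells. It was the larger in 29 of 31 preNeu cells, and the other 2 had neither. The tpMo cells were divided, 12 with more Mxd, 11 with more Myc and 8 with neither. In preNeu cells Mxd1 alone exceeded Myc in 28 of 31 cells, whereas in tpMo cells it did so in 6 of 31 and Mxd3 made up most of the Mxd sum. These are transcript levels, and no protein was measured.

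**Figure D3:**
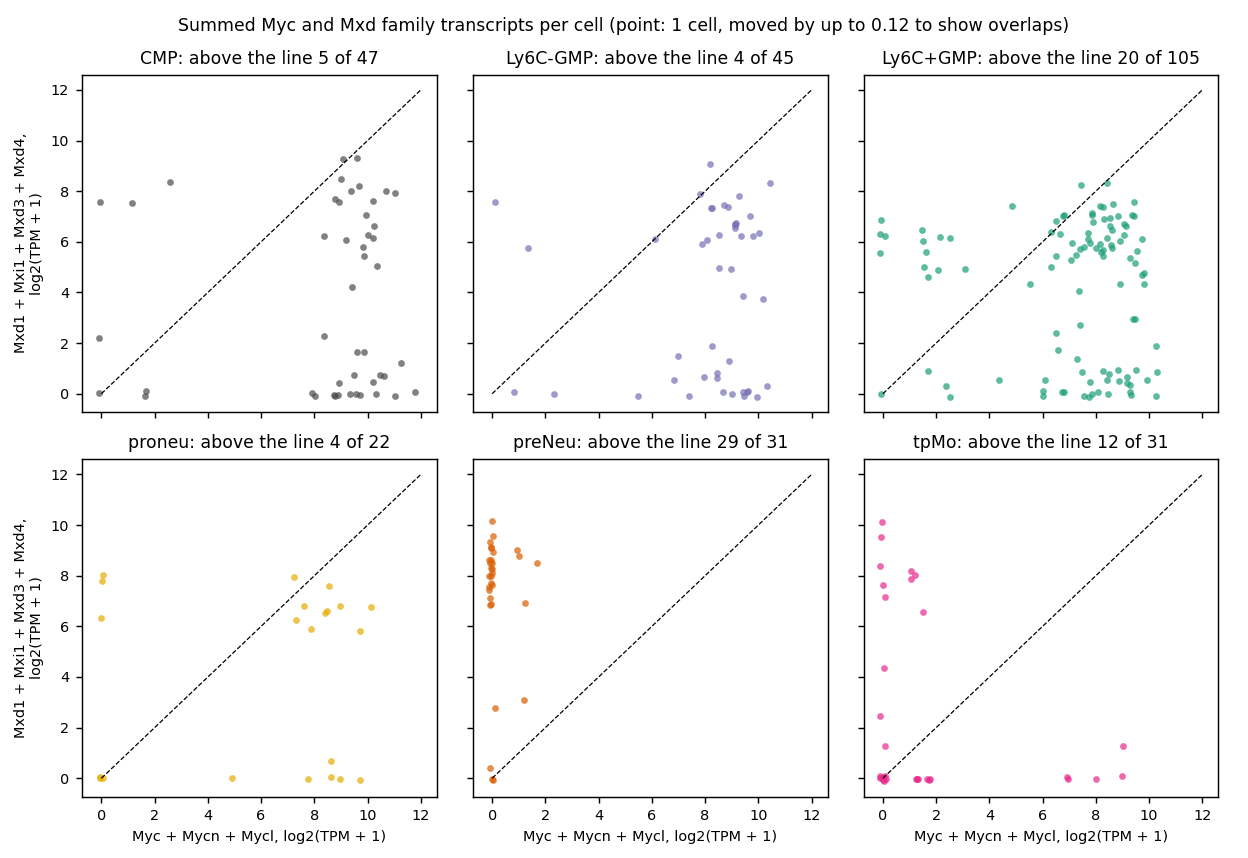
Summed Myc family against summed Mxd family transcripts in every cell, both as log2(TPM + 1), by label; the dashed line marks equal sums, and points were moved by up to 0.12 so that overlapping cells can be seen. The 29 preNeu cells above the line sit at the left edge, while most CMP, Ly6C-GMP, Ly6C+GMP and proneu cells are at the lower right.

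Myb (chr10:21124935-21160984, - strand) encodes the progenitor factor described above, and its levels overlapped widely among the 4 progenitor labels. Medians were 98.2, 104.6, 110.0 and 126 TPM for CMP, Ly6C-GMP, Ly6C+GMP and proneu, with highest cells at 523, 822, 588 and 627 TPM, and it was detected in 45 of 47, 44 of 45, 98.1% and 21 of 22 cells. The preNeu cells had a median of 0.90 TPM, with 12 of 31 at 10 TPM or more and the highest at 259; tpMo cells had a median of 1.08 TPM, with 7 of 31 at 10 TPM or more and the highest at 199. The means were 138 ± 143, 160 ± 162, 128 ± 109 and 161 ± 138 TPM in CMP, Ly6C-GMP, Ly6C+GMP and proneu cells, then 37 ± 65.4 in preNeu and 15 ± 41.9 in tpMo cells (8.82 without its highest cell). Only the step from CMP, the lowest of the 4 progenitor labels, to preNeu cells exceeded the spread (3.43 log2 units, pooled SD 2.63). The 12 preNeu cells with Myb at 10 TPM or more overlap the progenitors, while no preNeu cell held Myc above 2.37 TPM.

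Mybl2 (chr2:163054687-163084688, + strand) was found in 21 of 45 Ly6C-GMP cells (46.7%, exact 95% interval 31.7 to 62.1%), 46 Ly6C+GMP cells (43.8%, 34.1 to 53.8%) and 7 of 22 proneu cells (31.8%, 13.9 to 54.9%). CMP cells had it in 7 of 47 (14.9%, 6.20 to 28.3%), and preNeu and tpMo cells in 2 and 3 of 31. The highest cell held 574 TPM among tpMo, 276 among Ly6C+GMP, 275 among Ly6C-GMP, 246 among proneu, 161 among CMP and 154 TPM among preNeu cells. Its means were 44.5 ± 70.9 TPM in Ly6C-GMP, 40.3 ± 81.8 in proneu and 41.4 ± 65.8 in Ly6C+GMP cells, 14.5 ± 41.9 in CMP, 31 ± 115 in tpMo (12.9 without its highest cell) and 7.64 ± 30.9 in preNeu cells (2.78 without it). No neighbours in the order differed beyond their spread. Mybl1, the germ-line relative, reached 1 TPM in 6 of 281 cells.

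Differences between labels are given as the first minus the second mean of log2(TPM + 1); genes whose mean reached 1 TPM in one or both labels count as measured, and 1 log2 unit was the size counted. In Ly6C-GMP against CMP cells 1 of 8 members was higher by that much, Mybl2 (1.94; 2.17 in run B and 1.47 in run H), where 15.6% of 12582 measured genes were. Mycn was the 1 member lower (-1.23), where 1.29% of genes were. Mycn stayed within 1 log2 unit (-0.62) among cells with at least 3000 genes. The difference of Myb had opposite signs in the runs, 1.16 in B and -0.89 in H. From Ly6C-GMP to Ly6C+GMP no member passed 1 log2 unit, where 9.87% of 12399 genes were higher and 1.35% lower; Myc was the nearest at -0.98, and -1.46 with only the run C cells of Ly6C+GMP. No run held both of these labels, and the run cannot be told apart from the label there.

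Between proneu and Ly6C+GMP cells no member of 7 measured passed 1 log2 unit over all cells, where 2.2% of 12026 genes were higher and 15.9% lower. How the proneu label was given is not stated. If it was taken from transcripts, differences of proneu cells, here and in the lists below, are set in part by that choice. Myc differed by -0.97 and Mxi1 by 0.97. Within run C, with 21 proneu and 10 Ly6C+GMP cells, 3 members passed it: Max (1.71) and Mxi1 (1.09) were higher and Mybl2 (-1.26) lower in proneu cells, while Myc differed by -0.60. Of all measured genes, 5.49% were higher and 21.2% lower in that run. The sign of Myb again differed, 0.50 over all cells and -0.67 in run C.

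In preNeu against proneu cells 2 of 7 measured members were higher by 1 log2 unit, where 3.58% of 10991 measured genes were: Mxd1 (4.29, and 4.26 in run C) and Mxd3 (2.08, and 2.05). The mean TPM of Mxd1 was 12.8 times that of proneu cells. Lower were 4 of 7, where 39.8% of genes were: Myc (-5.85, and -5.74 in run C), Myb (-4.16, and -4.18), Mybl2 (-1.58, and -1.68) and Max (-1.12, and -1.18). The median over all measured genes was -0.68, closer to the values of Max and Mybl2 than to those of Myc and Myb. With the mitochondrial genes and the 20 genes of highest level taken out and the rest rescaled, Myc differed by -6.01, Myb by -4.19, Mxd1 by 4.75 and Mxd3 by 2.26.

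In tpMo against Ly6C+GMP cells 1 of 7 measured members was higher, Mxd3 (1.33, and 2.13 in run C), where 3.19% of 12057 genes were. Lower were 4, where 32.9% of genes were: Myc (-5.29, and -4.80 in run C), Myb (-4.52, and -5.71), Mybl2 (-1.87, and -2.55) and Max (-1.35, but -0.30 in run C). Mxd1 differed by -0.78 and Mxi1 by -0.92. In tpMo against preNeu cells, both of run C, Myc was the 1 member higher (1.53), where 26.3% of 10826 genes were, and Mxd1 (-5.18) and Mxi1 (-1.49) were lower, where 4.53% were. Mxd3 differed by -0.62. Comparisons that share a label share its cells, and their values are given side by side only.

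**Figure D4:**
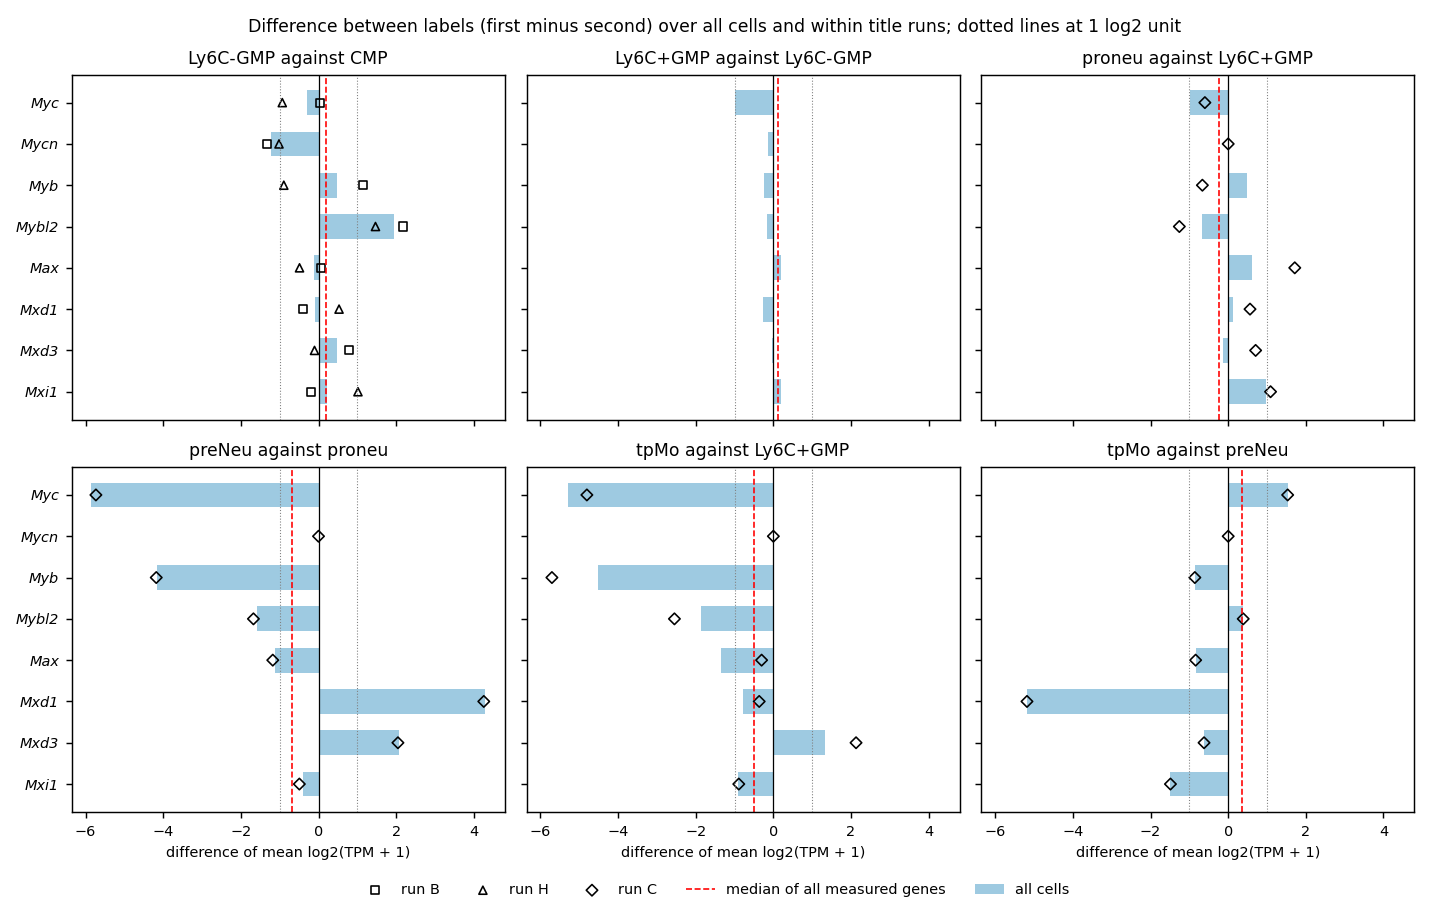
Difference of mean log2(TPM + 1) between labels for each gene over all cells (bars) and within title runs (symbols); dotted lines mark 1 log2 unit and the red dashed line the median of all measured genes. In preNeu against proneu cells Myc (-5.85) and Myb (-4.16) lie far to the left and Mxd1 (4.29) and Mxd3 (2.08) to the right, and the run C values lie on top of them.

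Lists of other genes of the network were drawn up from general knowledge, with earlier results of these data known. They are counted against all measured genes without a test. Of 30 Myc target genes, 29 were measured in preNeu or proneu cells and 28 were lower in preNeu by 1 log2 unit. Of all genes 39.8% were lower there, and the median difference was -3.98 for the list against -0.68 over all genes. Cdk4, a kinase of the G1 phase, had 705 ± 427 TPM in proneu and 22.8 ± 61.5 in preNeu cells (14.7 without the highest), and Nop56, a ribosome assembly factor, 531 ± 388 and 18.1 ± 58 TPM (9.59 without the highest preNeu cell). In tpMo against Ly6C+GMP cells 28 of 30 Myc targets were lower, where 32.9% of all genes were (median -2.83 against -0.50 over all genes). Among them was Srm, spermidine synthase, at 125 ± 244 against 623 ± 423 TPM. In tpMo against preNeu cells 19 of 26 were higher, where 26.3% of all genes were (median 2.04 against 0.36). Cdk4 stood at 686 ± 666 TPM in tpMo cells, although their median Myc was 0. From Ly6C-GMP to Ly6C+GMP, 3 of 30 were higher and none lower, near the 9.87% and 1.35% of all genes. From Ly6C+GMP to proneu 14 of 30 were lower, or 9 of 30 in run C, where 15.9% of all genes were, or 21.2% in run C. Against CMP, 11 of 30 were higher in Ly6C-GMP cells, where 15.6% of all genes were. Across cells within a label the mean of the Myc target list had r between -0.20 and 0.19 with Myc itself (5 labels, at least 22 cells each), and between 0.30 and 0.72 with the number of genes detected.

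Myb target genes were 16 in the list, many of them primary granule genes that also serve as markers above. The list also holds Kit and Cd34, whose proteins were used in sorting, so their differences can be set by the gates. In preNeu against proneu cells 11 of 14 measured were lower and 1 higher (median -3.36), where 39.8% of all genes were lower and 3.58% higher. Mpo, myeloperoxidase, had 47923 ± 11301 TPM in proneu and 152 ± 514 in preNeu cells (62.8 without its highest cell). In tpMo against Ly6C+GMP cells 13 of 15 were lower, where 32.9% of all genes were. In Ly6C-GMP against CMP cells 7 of 16 were higher and 3 lower, where 15.6% of all genes were higher and 1.29% lower. Myb itself was at 0.47 there, and Elane, neutrophil elastase, stood at 16018 ± 12133 against 1488 ± 4333 TPM. Cofactors of Myb numbered 6, of which 3 were lower and none higher in preNeu against proneu cells, near the 39.8% of all genes that were lower (list median -0.54, all genes -0.68).

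The cell cycle lists held 22 mitotic genes that MMB activates and 20 S phase genes. Against Ly6C-GMP, 17 of 22 mitotic and 11 of 20 S phase genes were higher in Ly6C+GMP cells and none lower, with Mybl2 at -0.15. Of all genes, 9.87% were higher and 1.35% lower. In preNeu against proneu cells 9 of 22 mitotic genes were higher and 2 lower (median 0.92), for example Ube2c, which marks proteins for destruction in mitosis, at 543 ± 570 against 112 ± 212 TPM, while 17 of 20 S phase genes were lower and none higher (median -2.57), for example Mcm6 of the replicative helicase at 137 ± 289 against 499 ± 203 TPM. Of all genes, 3.58% were higher and 39.8% lower there. Foxm1, the factor that follows Mybl2 on mitotic promoters, had 54.7 ± 135 against 2.80 ± 10.8 TPM (36.1 and 0.55 without the highest cells). It was counted with the MuvB and DREAM genes, as the 1 of 10 measured that was higher. In that list 4 were lower, near the 39.8% of all genes (list median -0.83, all genes -0.68). In proneu against Ly6C+GMP cells 13 of 22 mitotic genes were lower (16 of 22 in run C), where 15.9% of all genes were (21.2% in run C). In tpMo against Ly6C+GMP cells, where Mxd3 was higher, 6 of 22 were lower. That is no larger a share than the 32.9% of all genes that were lower (list median -0.30, all genes -0.50). Within run C 13 of 22 were lower, where 36.9% of all genes were. Within labels Mybl2 had r of 0.39, 0.40, 0.30 and 0.29 with the S phase mean and 0.21, -0.25, -0.20 and -0.09 with the mitotic mean over the cells of CMP, Ly6C-GMP, Ly6C+GMP and proneu, in that order. Over the same cells its r was 0.36, 0.43, 0.20 and 0.48 with the Myc target mean. With the number of genes detected it was 0.34, 0.07, 0.01 and 0.28. Mxd3 had r of 0.42, 0.23, 0.22 and 0.49 with the mitotic mean and -0.07, -0.04, 0.03 and -0.28 with the S phase mean over those of Ly6C-GMP, Ly6C+GMP, preNeu and tpMo (n is every cell of the label in each case). The cells of a label share depth and library steps, the values are sparse and these r are weak, so they are descriptions only.

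**Figure D5:**
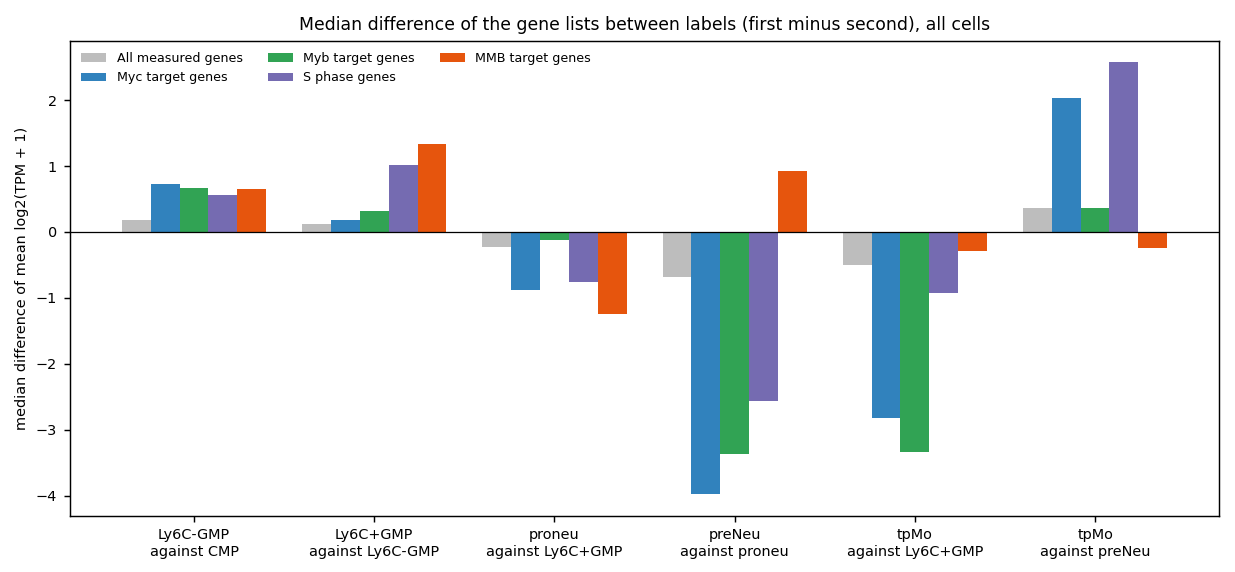
Median difference of mean log2(TPM + 1) over the genes of each list, by comparison, beside the median over all measured genes (grey). In preNeu against proneu cells the medians are -3.98 for Myc targets, -3.36 for Myb targets, -2.57 for S phase genes and 0.92 for mitotic (MMB target) genes.

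The remaining partners were counted in the same way. Of 10 corepressor genes used by Mxd proteins, 3 were lower and none higher in preNeu against proneu cells, no larger a share than the 39.8% of all genes that were lower (list median -0.71, all genes -0.68), including Sin3b, a scaffold that Mxd proteins bind (101.2 ± 219 against 217 ± 229 TPM). Among 12 Myc cofactor and turnover genes 8 were lower and none higher (list median -1.38); Ruvbl1, an ATPase of chromatin remodelling complexes, had 163 ± 161 TPM in proneu and 0.23 ± 0.54 in preNeu cells. Mlx, the partner of a parallel network that also takes Mxd1, was at 332 ± 320 TPM in proneu and 297 ± 275 in Ly6C+GMP cells, 209 ± 302 in tpMo, 200 ± 281 in Ly6C-GMP, 167 ± 344 in preNeu and 84.6 ± 236 in CMP cells (56.7 without the highest CMP cell). Its mean log2 value differed by -4.37 in preNeu against proneu cells, where 11 of 31 and 20 of 22 cells held it. The difference was 3.14 in Ly6C-GMP against CMP and 1.65 in Ly6C+GMP against Ly6C-GMP cells. For proneu against Ly6C+GMP cells it was 0.23, but -1.78 in run C. In tpMo cells it was -2.68 against Ly6C+GMP and 1.45 against preNeu. Mlxipl was listed at 0 in all 281 cells.

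Genes with the most similar pattern were ranked by Pearson r over 9 means, 1 for each label within a run with at least 10 cells, among 4914 other genes with a mean of at least 20 TPM and detected in at least 25% of cells. The 9 points share libraries and depth with the label, so r is a description. Myc was closest to Cdk6 (r = 0.975), Atpif1, Xpo4, Ncl and Cbx1; Cdk6, a G1 kinase of blood progenitors, had 1005 ± 415 TPM in CMP and 50.5 ± 55.4 in preNeu cells. The most opposed, outside the naming rule, was Itgb2, an integrin of mature leukocytes (r = -0.984; 41 ± 142 TPM in CMP and 522 ± 512 in preNeu cells). Mxd1 was closest to Lrg1 (0.913), Cd9, Cd177, Lcn2 and Ltf, of which Cd177, Lcn2 and Ltf are in the secondary granule list, and most opposed, again outside that rule, to Prdx1 (-0.984), an antioxidant enzyme at 47.4 ± 118 TPM in preNeu and 1413 ± 698 in tpMo cells. Myb was closest to Il12a (0.990), Nudt3, Tsr1, Rcl1 and Prrc2a, Mybl2 to Son (0.981), Fkbp11, Ern1, Gtf2h4 and Cuedc2, and Max to Cspp1 (0.897), Tmem181b-ps, Exoc1 and Setd3. Mycn, Mxd3 and Mxi1 were under the limits on level and detection. With label and run means taken out, the highest r of any gene with any of the 5 ranked members over 280 cells was 0.26, and the highest between members was 0.13, for Myc and Myb.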

How the data were processed

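Single cells were profiled by SMART-seq2, and the authors deposited 1 table of TPM values, 1 column a cell; RSEM 1.2.19 and the build GRCm38 are named per the submitters' processing notes. No source used here names an aligner or annotation. TPM keeps no read depth, so the number of genes at 1 TPM or more stands in for it. All 281 columns matched a sample title, no cell had values identical to another, and none was left out. No doublets were called. The table does not let reads be told apart between a gene and one that overlaps it.

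From the deposited TPM, mean, SD, range and share of cells at 1 TPM were computed per label with Python 3.11.15, pandas 2.3.3, numpy 2.4.6 and scipy 1.17.1, with exact Clopper-Pearson 95% intervals, which cover counting error only. Differences were of mean log2(TPM + 1), a scale that understates the difference of low genes. List genes could be named if among the 3 of a list with the largest difference in a comparison and at least 5 TPM, and those described were picked from these after their values were seen. The E2F form GGCGGGA was chosen after the sequences were seen. A few genes that these rules would name are not reported here. The difference script was tested on simulated data. The members and lists were chosen with earlier results of these data known. Alternatives were other pseudocounts, the ratio of means, other scalings and filters, single title runs, other detection limits and leaving out the highest cell.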

Additional observations from a re-analysis of the deposited data

How the results depend on the processing

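With 1 sample a label, no test was possible and the number of animals behind the cells is unknown; TPM hides read depth, so a gene listed at 0 may be present at a low level. No paired analysis was possible because no result comes from a test. Myc and Myb lower and Mxd1 and Mxd3 higher in preNeu than in proneu cells passed 1 log2 unit under each alternative run there, with 4 to 6 members past it; the alternative of cells with at least 3000 genes could not be run for the preNeu comparisons, as 1 preNeu cell has that many.

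Counts of members past 1 log2 unit that moved were as follows. A pseudocount of 10 TPM gave 0 against 2 for Ly6C-GMP and CMP, 2 against 5 for tpMo and Ly6C+GMP, and 1 against 3 for tpMo and preNeu. Of all measured genes, 4.25%, 1.85% and 13.6% were then higher and 0.38%, 13.1% and 2.1% lower, in that order. A pseudocount of 0.1 TPM gave 1 against 0 for Ly6C+GMP and Ly6C-GMP, and 3 against 0 for proneu and Ly6C+GMP. Here 20.1% and 4.72% of all genes were higher and 3.46% and 28.8% lower. The log2 ratio of mean TPM gave 2, 1 and 6 against 0, 0 and 3 for Ly6C+GMP and Ly6C-GMP, proneu and Ly6C+GMP, and tpMo and preNeu. By that measure 12.8%, 10.6% and 45.6% of all genes were higher and 12.2%, 24.2% and 17.8% lower. Median-ratio scaling gave 5 for tpMo and preNeu, and renormalising gave 5 there and 1 for proneu and Ly6C+GMP. In that order, 21.4%, 24.6% and 2.49% of all genes were higher and 6.48%, 5.72% and 16% lower. Cells with at least 3000 genes gave 1 for Ly6C-GMP and CMP, where 9.76% of all genes were higher and 3.38% lower. Run C alone gave 3 for proneu and Ly6C+GMP, and run C cells of Ly6C+GMP gave 1 against Ly6C-GMP. Respectively 5.49% and 16.7% of all genes were higher and 21.2% and 6.64% lower. The other 40 counts stayed within 1.5 times.

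Of single differences, 224 moved by less than 0.5 log2 units, 85 by more, and 1 that passed 1 log2 unit changed sign, that of Max between preNeu and proneu cells (0.2212 as the log2 ratio of mean TPM); sign changes of smaller differences, such as those of Myb between runs, are among the others. As the log2 ratio of mean TPM the share of passing genes that were higher went from 92.4% to 39.6% for Ly6C-GMP and CMP, 87.9% to 51.1% for Ly6C+GMP and Ly6C-GMP, 12.1% to 30.4% for proneu and Ly6C+GMP, 8.26% to 26.8% for preNeu and proneu, 8.84% to 33.4% for tpMo and Ly6C+GMP, and 85.3% to 71.9% for tpMo and preNeu. Median-ratio scaling shifted the median of all genes by 0.15 log2 units for preNeu and proneu and by -0.11 for tpMo and preNeu. The cause of these changes was not tested.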
